A study of Homo sapiens with 2 samples.

Results

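The replication-dependent histone genes were examined on 2 whole-transcript expression arrays of IGROV1-R10, a line derived from IGROV1 human ovarian carcinoma cells and known to resist cisplatin. The groups were cells given a miR-491-5p duplex (1 array) and cells given a duplex of control miRNA (1 array). Transfection used 20 nM of either duplex and took place 24 hours after the cells were seeded, and each labelling started from 100 ng of total RNA. The histone genes were chosen by symbol, as genes of the H1, H2A, H2B, H3 and H4 families that lie in the replication-dependent clusters, provided that a probe set carried their symbol and no other. This gave 32 of the 22465 genes measured in that way: 6 H1, 9 H2A, 15 H2B, 0 H3 and 2 H4 genes. Probe sets shared by several histone genes, which include every H3 set that matched by symbol, are described separately. Values are deposited log2 signals, and a difference is the reading with miR-491-5p minus the reading with control miRNA. Without a second array in either group, no difference has an error between cultures, no test between the groups was possible and no p-value is given.

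Replication-dependent histones package newly made DNA. Their genes are transcribed in S phase, and their messenger RNAs end in a stem-loop bound by SLBP instead of a poly(A) tail. H2A, H2B, H3 and H4 form the nucleosome core, and H1 binds the linker DNA between nucleosomes. The labelling chemistry primes along the whole transcript, so RNAs without a poly(A) tail can be read. In a bulk RNA sample, fewer cells in S phase and less histone RNA per cell cannot be told apart.

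The mature miRNA is shown because it is the transfected agent. It is encoded on chromosome 9 (chr9:20716120-20716141, plus strand, GRCh38.p14, RefSeq), and the seed, bases 2 to 8, is in capitals.
hsa-miR-491-5p: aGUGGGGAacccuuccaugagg

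Most histone genes had small differences between the arrays, and H4C3 (-0.49) and H2BC11 (0.36) were the extremes above the filter. Of the 32 genes, 28 were above the signal filter of 5.55, the median of all values on both arrays, and none of these 28 differed by 1.5-fold in either direction. For comparison, 3.62% of all 14373 genes above the filter were lower by 1.5-fold or more on the miR-491-5p array and 0.675% were higher by that much. The shares past 2-fold were 0.758% and 0.0487%. Since few of all genes passed these folds, a count of 0 among 28 does not set the histone genes apart. At 1.2-fold, a threshold added after the values were seen, 1 histone gene was lower and 2 were higher, against 17.5% and 5.28% of all genes. The median difference of the 28 genes was -0.02, with values from -0.49 to 0.36, and that of all genes was -0.07. Of the 28, 17 were below 0 and 11 above, while 64.8% of all genes were below 0 and 33.5% above. A difference of at most 0.25 in size was found for 25 of the 28 (89.3%), against 75.9% of all genes. After both arrays were centred on the median difference of all genes, the histone median was 0.05, with 9 genes below 0 and 19 above, so its sign depends on the scaling.

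**Figure D1:**
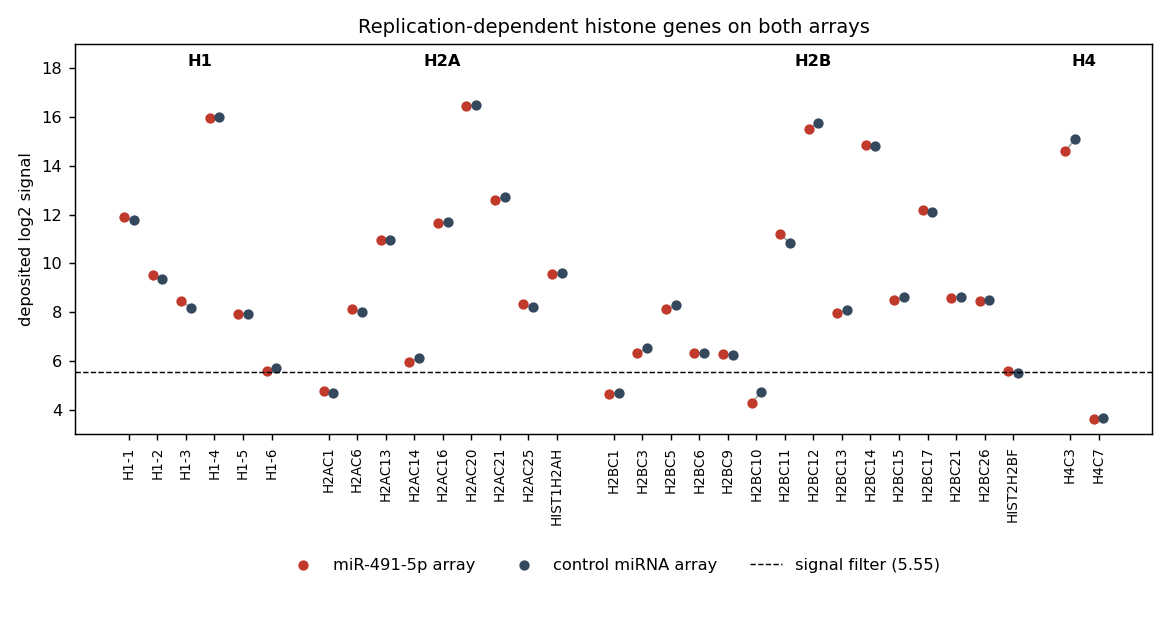
Deposited log2 signal (vertical axis) of each of the 32 histone genes with its own probe set on the miR-491-5p array (red, left point) and the control miRNA array (dark, right point), ordered by class. The 2 points of a gene lie close together throughout, with the widest gap at H4C3 (14.60 and 15.09). The dashed line is the signal filter of 5.55. Heights of different genes come from different probes and are not comparable.

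The H1 genes encode the linker histones. H1-3 read 8.45 on the miR-491-5p array and 8.18 on the control array, H1-1 read 11.92 and 11.76, and H1-2 read 9.50 and 9.35. These 3 were the H1 genes with the largest positive differences, of 0.27, 0.16 and 0.15. H1-4 read 15.98 on the miR-491-5p array, against 16.00 on the control array, and H1-5 read 7.94 against 7.93. Both were therefore level to within 0.02. H1-6, the testis-specific H1, read 5.60 against 5.70, just above the filter. The H1 median was 0.08, and 4 of 6 genes were above 0, beside 33.5% of all genes. It was 0.15 after median centring, with 5 of 6 above 0, and 0.02 when H1-10, a linker histone outside the clusters, was counted in. Only H1-3 passed 1.2-fold, at 1.21-fold higher (0.34 after median centring).

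The promoters of H1-3 and H1-4 are shown because H1-3 had the largest H1 difference and H1-4 one of the smallest. Both carry the same elements in the same order, and the part of these in the differences was not tested. Each line gives the 150 bases before the transcript start, 5′ to 3′, from RefSeq (GRCh38.p14). H1-3 is at chr6:26234988-26235137 on the minus strand and H1-4 at chr6:26156179-26156328 on the plus strand. Capitals mark matches, on either strand, to the H1 box (AAACACA), to the CCAAT box and to the TATA box (TATAAA).
H1-3: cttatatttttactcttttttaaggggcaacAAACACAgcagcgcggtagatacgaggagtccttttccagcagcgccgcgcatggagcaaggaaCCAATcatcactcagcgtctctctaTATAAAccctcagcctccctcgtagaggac
H1-4: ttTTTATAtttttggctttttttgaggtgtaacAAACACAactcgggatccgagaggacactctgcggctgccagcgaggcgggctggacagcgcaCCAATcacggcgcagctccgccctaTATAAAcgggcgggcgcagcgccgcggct
The H1 box began 119 bases before the start in H1-3 and 117 in H1-4, the CCAAT match 55 and 54, and the TATA match nearest the start 30 and 29. The first capitals in H1-4 are a TATAAA match on the opposite strand.

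Among genes with their own probe set above the filter, the H2A genes had the narrowest range of the classes with more than 1 gene. Their differences ran from -0.16 to 0.14 over 8 genes above the filter. The median was -0.015 (0.055 after median centring, so its sign also depends on the scaling). Shared H2A sets, described below, reached 0.27 and are not in this ranking. H2AC21 read 12.58 on the miR-491-5p array, against 12.74 on the control array, H2AC14 read 5.95 against 6.10, and H2AC20 read 16.45 against 16.50. Those 3 had the largest negative differences of the class. Of the 2 genes above 0, H2AC25 read 8.33 against 8.19 and H2AC6 read 8.11 against 8.01. The remaining 3 were level to within 0.02: H2AC16 read 11.66 against 11.68, H2AC13 read 10.96 against 10.97, and HIST1H2AH read 9.58 against 9.59. H2AC1, a testis form of H2A, was below the filter at 4.78 against 4.69.

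The H2B genes held the largest positive difference of the set. H2BC11 read 11.20 on the miR-491-5p array and 10.84 on the control array, which is 1.28-fold higher. It is the only one of the 32 genes with a second probe set of its own, and that set read 8.25 against 8.17, a difference of 0.08. The mean of its probe sets gave 0.22, below 1.2-fold. H2BC12 read 15.53 against 15.77, the largest negative difference among H2B genes above the filter (-0.24). H2BC3 read 6.31 against 6.51 and H2BC5 read 8.11 against 8.27. Genes of the class thus went both ways.

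The other H2B genes above the filter lay between -0.12 and 0.11. H2BC15 (8.49 against 8.61) and H2BC13 (7.97 against 8.07) were the lowest of these. H2BC14 read 14.87 against 14.82, H2BC17 12.19 against 12.12 and H2BC9 6.28 against 6.24. H2BC6 (6.30 against 6.33), H2BC26 (8.47 against 8.49) and H2BC21 (8.59 against 8.61), which can also give a polyadenylated transcript in differentiated cells, were level to within 0.03. HIST2H2BF read 5.60 against 5.49 and passed the filter on the miR-491-5p array only, which fixed its sign. Another set, which names HIST2H2BF together with the pseudogene HIST2H3PS2, read 7.84 against 7.85. Over the 13 genes the median was -0.02 (0.05 after median centring), with 8 below 0, beside 64.8% of all genes. Below the filter, H2BC10 read 4.28 against 4.71 and the testis-specific H2BC1 read 4.63 against 4.69.

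The promoters of H2BC11 and H2BC12 are shown because these genes had the largest positive and the largest negative difference of the class above the filter. Each line gives the 150 bases before the transcript start (RefSeq, GRCh38.p14), at chr6:27132796-27132945 for H2BC11 and chr6:27146859-27147008 for H2BC12, both on the minus strand. Capitals mark matches to CCAAT, to the octamer ATTTGCAT, which the factor OCT1 binds in H2B promoters, and to TATAAA, on either strand.
H2BC11: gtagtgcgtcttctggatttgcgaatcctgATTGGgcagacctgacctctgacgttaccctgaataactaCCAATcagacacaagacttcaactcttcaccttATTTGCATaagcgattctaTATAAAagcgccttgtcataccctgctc
H2BC12: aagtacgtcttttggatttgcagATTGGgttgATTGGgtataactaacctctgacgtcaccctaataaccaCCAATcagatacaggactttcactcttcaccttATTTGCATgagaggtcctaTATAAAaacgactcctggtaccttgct
The octamer began 47 bases before the start in H2BC11 and 46 in H2BC12, and the TATA match 28 and 27. Both share this proximal arrangement. Its part in the differences between the arrays was not tested, and the second probe set of H2BC11 differed by only 0.08.

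The same motifs were counted over the 300 bases from 250 before to 50 after the start, on both strands, in the 30 histone genes with a promoter in the RefSeq table and in 27305 promoters of all genes. No motif lies within another. CCAAT was found in 29 of 30 histone promoters (96.7%), against 35.7% of all promoters, and TATAAA in 20 (66.7%), against 12.0%. The octamer was found in 11 of 15 H2B and 6 of 8 H2A promoters and in 0 of 6 H1 promoters, against 1.80% of all promoters. Some H2A and H2B genes face each other across a shared promoter region, and these windows then overlap. The H1 box AAACACA was found in 6 of 6 H1 promoters, in 1 of 8 H2A and 0 of 15 H2B promoters, against 5.76% of all. A match describes these letters only.

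**Figure D2:**
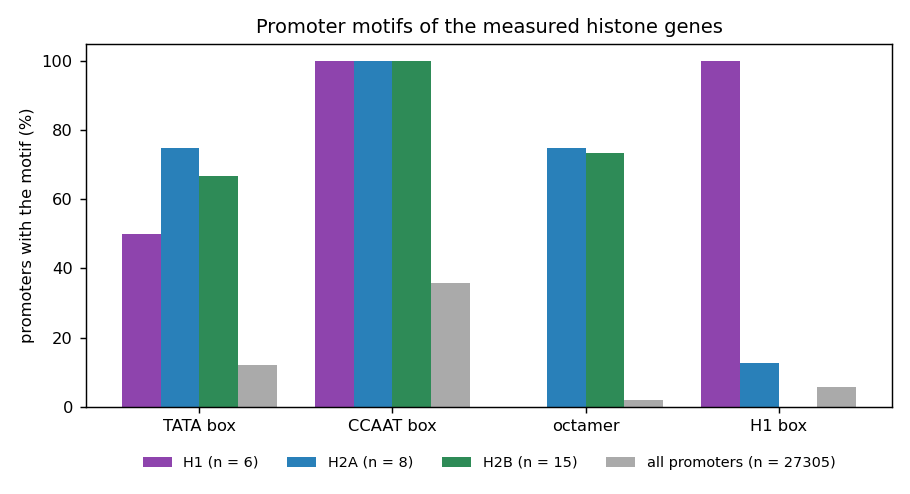
Share of promoters (vertical axis, %) holding each of 4 motifs in the 6 H1, 8 H2A and 15 H2B genes measured and in all 27305 promoters (grey). The H1 box was in every H1 promoter examined and the octamer in most H2A and H2B promoters and in no H1 promoter; CCAAT was in all promoters of these 3 classes.

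Divergent H2A and H2B pairs gave a look at genes that share a promoter region. In 5 pairs both genes had their own probe set and starts at most 1000 bases apart on opposite strands (215 to 245 bases). The differences within a pair lay 0.03 to 0.20 from each other. H2BC21 and H2AC20 were closest (-0.02 and -0.05), and H2AC14 and H2BC14 were farthest apart (-0.15 and 0.05). In 3 of the pairs the genes had opposite signs, all with differences of at most 0.15 in size. One of these pairs, H2AC1 and H2BC1, was below the filter. The signs depended on the scaling. After median centring H2AC25 and H2BC26 had the same sign (0.21 and 0.05), while H2BC13 and H2AC13 had opposite signs (-0.03 and 0.06). Gaps between unpaired genes were not computed for comparison.

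Of H4, only H4C3 and H4C7 had their own probe set. H4C3 read 14.60 on the miR-491-5p array, against 15.09 on the control array, which is 1.40-fold lower. It was the largest difference among the 28 genes above the filter, at -0.42 after median centring and -0.44 after a loess correction. H4C7 read 3.62 against 3.67, below the filter. Probe sets that carry its symbol together with other H4 genes are described next. They are not repeat readings of H4C3, because their symbols do not tell which of them, if any, reads it. The genes named by those sets are known to encode the same H4 protein.

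Most core histone genes could be read only through shared probe sets. Altogether 36 sets carried several symbols that were all histone genes, naming 43 genes, and 34 of the sets were above the filter. None passed 1.5-fold. Their median was 0.025, with 15 below 0, 18 above and 1 at 0, while 64.8% of all genes were below 0 and 33.5% above. The symbols of such a set do not tell which gene gave its signal, so the sets are given by the symbols they share.

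For H3, 12 probe sets named 13 genes. The 3 sets annotated to H3C13, H3C14 and H3C15 differed by 0.00 to 0.09, and the one that did not differ read 11.77 on both arrays. The 9 sets annotated to 10 H3 genes (H3C1 to H3C4, H3C6 to H3C8 and H3C10 to H3C12) ranged from -0.33 to 0.44, with 8 above the filter. The lowest of these, TC06001354.hg.1, read 5.62 on the miR-491-5p array and 5.95 on the control array. The highest, TC06000174.hg.1, read 8.60 and 8.16. TC06001427.hg.1 was nearly level at 15.45 and 15.49. Over the 11 H3 sets above the filter the median was 0.00. H3-4, a testis H3 with its own probe set, was left out only because its symbol lies outside the naming pattern. It read 7.29 and 7.37.

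For H4, 13 sets were annotated to the same 14 genes, H4C3 among them, and they did not move together. Above the filter, 12 sets ran from -0.28 to 0.51, with a median of 0.125 and 8 above 0, beside 33.5% of all genes. The highest, TC12001272.hg.1, read 5.72 on the miR-491-5p array and 5.21 on the control array. It passed the filter on the miR-491-5p array only, which fixed its sign. The set left out, TC06000175.hg.1, read 5.13 and 5.53 (-0.40), just below the filter on the control array. TC01001173.hg.1 read 9.70 and 9.28, and TC01003192.hg.1 read 9.66 and 9.29. On the low side, TC06001428.hg.1 read 7.16 and 7.44. TC06001424.hg.1 (15.28 and 15.39) and TC06001348.hg.1 (13.32 and 13.34) differed little. The H4 sets thus gave no common direction, and adding them to H4C3 put the H4 median at 0.10, against -0.49 for H4C3 alone.

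Shared sets of H2A and H2B stayed within 0.27 of 0. The set pair annotated to H2AC18 and H2AC19 differed by -0.10 and -0.02, and that annotated to H2AC4 and H2AC8 by -0.07 and 0.27. The 3 sets annotated to 6 H2A genes, H2AC11 among them, differed by 0.01 to 0.20. The 3 sets annotated to 5 H2B genes, H2BC4 among them, differed by -0.09 to 0.27. A further set, annotated to H2AC7 and 10 H3 genes, read 11.77 against 11.80.

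**Figure D3:**
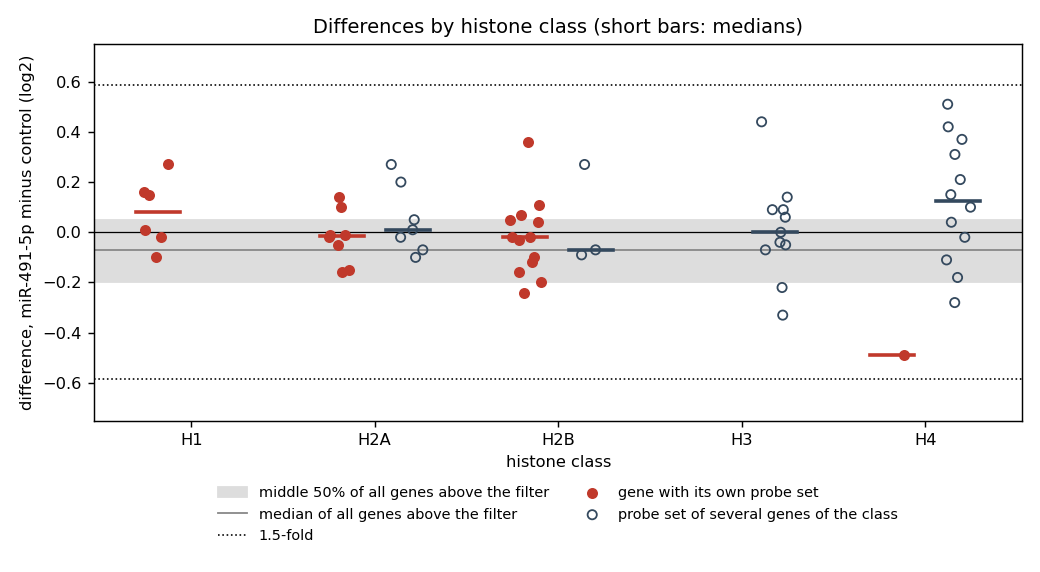
Difference between the arrays (miR-491-5p minus control, log2, vertical axis) by histone class, for genes with their own probe set (filled) and probe sets of several genes of the class (open), all above the filter. Short bars are medians, the grey band is the middle 50% of all genes above the filter (-0.20 to 0.05), and dotted lines mark 1.5-fold. No point reaches the dotted lines; H4C3 (-0.49) and the open H4 points (up to 0.51) come nearest.

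By position, only genes with their own probe set were compared, between the large cluster on chromosome 6 and the smaller ones on chromosome 1. Shared probe sets are not in this comparison, and those of H4 above the filter ran from -0.28 to 0.51. The 22 genes above the filter in the chromosome 6 cluster (HIST1) had a median of -0.015, with both extremes of the set among them. The 4 genes of the HIST2 cluster ran from -0.16 to 0.11 (median -0.035), and the 2 of the HIST3 cluster read -0.02 and 0.14 as differences. After median centring the HIST1 and HIST2 medians were 0.055 and 0.035, so neither has a settled sign.

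Replacement histone variants are made outside S phase as well, mostly from polyadenylated messages. Of 12 listed, 8 had their own probe set and 7 were above the filter, with a median difference of 0.02. No gene passed 1.5-fold, beside 3.62% lower and 0.675% higher of all genes. H2AZ2, a form of H2A.Z, read 12.12 on the miR-491-5p array and 12.34 on the control array, and MACROH2A1, which carries a macro domain, read 9.53 and 9.73. H3-5 read 7.75 and 7.57, H2AX, the variant phosphorylated at DNA breaks, 11.85 and 11.95, and H1-10 6.81 and 6.79. The 2 shared sets of H3-3A and H3-3B, which encode the same H3.3 protein, read 14.64 and 14.38 and, in a set that also names a pseudogene, 11.89 and 11.72. Neither the replacement nor the replication-dependent genes above the filter passed 1.5-fold, which few of all genes did. The medians of both lay within 0.04 of each other.

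Of 9 genes measured that serve transcription of the histone clusters, 8 were below 0, beside 64.8% of all genes, with a median of -0.05 (0.02 after median centring). None passed 1.5-fold, beside 3.62% lower and 0.675% higher of all genes. NPAT, the cyclin E-CDK2 substrate that switches on the clusters, read 11.15 on the miR-491-5p array, against 11.18 on the control array. CCNE1, which encodes cyclin E, read 10.59 against 10.97 (-0.38), and its partner CDK2 read 12.04 against 11.79 (0.25). The S-phase regulator E2F1 differed by -0.11 and HINFP, which binds H4 promoters, by -0.10.

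Among the 17 genes for 3′ end formation of histone messages, 12 were below 0, beside 64.8% of all genes, and the median was -0.11. One passed 1.5-fold lower and 0 higher, against the 3.62% and 0.675% of all genes. That gene was ZNF473, the zinc finger protein of the U7 small nuclear ribonucleoprotein that contacts SLBP, at 7.67 on the miR-491-5p array and 8.28 on the control array (1.53-fold lower, but -0.54 and below 1.5-fold after median centring). LSM11, which marks the U7 particle, read 7.61 and 7.93, CSTF2T, a cleavage factor paralog, 7.61 and 8.05, and SNRPG, a ring protein of small nuclear particles, 8.53 and 8.86. SLBP itself read 11.69 and 11.80.

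Of the 9 genes for decay of histone messages, 5 were below 0, beside 64.8% of all genes, and the median was -0.05. None passed 1.5-fold, which few of all genes did (3.62% lower and 0.675% higher). ERI1, the exonuclease that trims the histone stem-loop, had the largest difference, at 9.09 on the miR-491-5p array and 9.65 on the control array (1.47-fold lower). The decapping enzyme DCP2 differed by 0.26, the helicase UPF1, which acts with SLBP in histone message decay, by -0.22, and the uridylyl transferase TUT4 by 0.11.

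Differences of histone chaperones ran from -0.76 to 0.73. Of 21 measured, 1 passed 1.5-fold lower and 1 higher, beside 3.62% and 0.675% of all genes, and the median was -0.03. CABIN1, a subunit of the HIRA complex that deposits H3.3, read 8.62 on the miR-491-5p array and 9.38 on the control array (1.69-fold lower). SUPT16H, the large subunit of the FACT complex, read 14.16 and 13.43 (1.66-fold higher), while its partner SSRP1 read 13.63 and 13.92. IPO4, an importin that carries H3 and H4, read 9.69 and 10.25 (-0.56), and ASF1B, an H3-H4 chaperone of proliferating cells, 10.22 and 9.81 (0.41).

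S-phase and DNA replication genes, which mark the phase in which these histones are made, had a median of -0.035 over 38 genes. Among them 21 were below 0 and 17 above, beside 64.8% and 33.5% of all genes. Of these, 2 passed 1.5-fold lower and 1 higher, beside 3.62% and 0.675% of all genes. MCM2, a helicase subunit that also binds H3-H4, read 8.41 on the miR-491-5p array and 9.25 on the control array, and TK1, thymidine kinase, 10.75 and 11.52. RPA1, which coats single-stranded DNA, read 12.83 and 11.98, and TYMS, thymidylate synthase, 13.54 and 12.99 (1.46-fold higher, and 0.62 or past 1.5-fold after median centring). The list median lay between the -0.02 of the histone genes and the -0.07 of all genes, with members on both sides. The medians of the chaperone, decay and transcription lists lay there too. The share of cells in S phase was not measured.

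RNAs that lack a canonical poly(A) tail for other reasons were listed to set the histone messages beside transcripts read by the same chemistry. All 14 measured were within 1.2-fold, while 17.5% of all genes were lower and 5.28% higher by at least that much. Their median was -0.01, with differences from -0.12 to 0.26. RNU5B-1, a U5 spliceosomal RNA, read 8.37 on the miR-491-5p array and 8.11 on the control array, RNU4-1 13.72 and 13.56, RNU4ATAC 15.78 and 15.66, RNU11 11.79 and 11.63, and RMRP, an RNA of a processing ribonuclease, 16.67 and 16.79. The part of RNA quality or of the RNA type in the histone values was not tested.

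**Figure D4:**
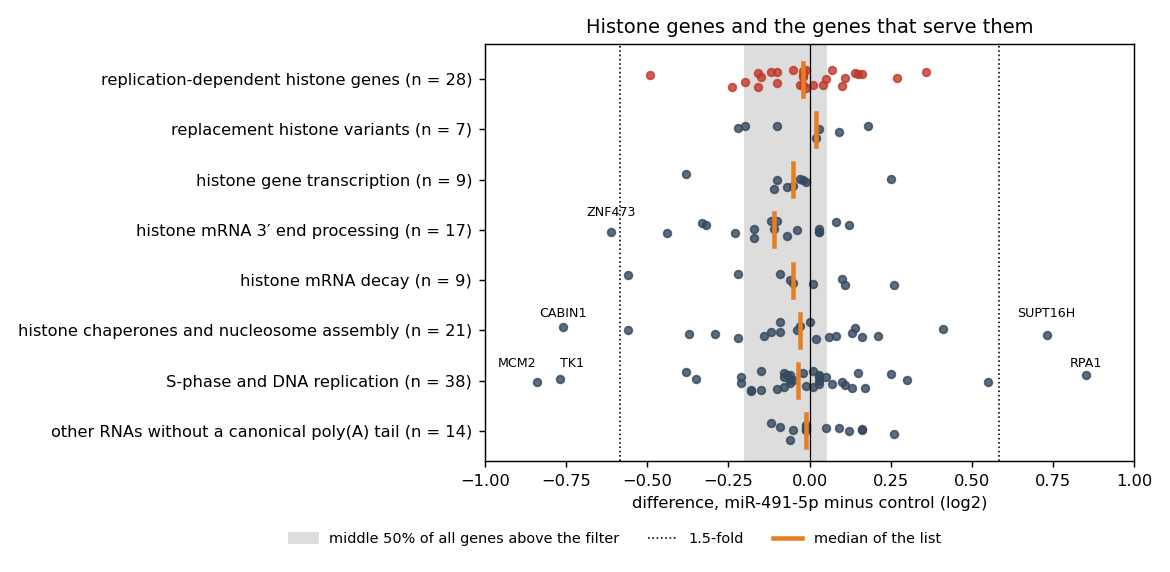
Difference between the arrays (miR-491-5p minus control, log2, horizontal axis) for the 28 replication-dependent histone genes above the filter (red) and 7 lists of related genes or RNAs (dark), with n beside each name. Orange bars are medians, the grey band is the middle 50% of all genes above the filter, and genes past 1.5-fold (dotted lines) are named. The histone row lies between the dotted lines, and the list medians run from -0.11 to 0.02.

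Of 9 ovarian carcinoma and epithelial markers, 8 were above the filter, 4 below 0 and 4 above, beside 64.8% and 33.5% of all genes. WFDC2 (5.04 on the miR-491-5p array, 5.09 on the control array) was below the filter. KRT18, a keratin of simple epithelia, read 14.98 and 15.58 (1.52-fold lower, but -0.53 and below 1.5-fold after median centring), and its partner KRT8 read 15.17 and 15.61. The cadherin CDH1 read 8.20 and 7.70, and MECOM, a transcription factor gene often amplified in ovarian carcinoma, 11.04 and 10.59. PAX8, EPCAM and KRT7 differed by -0.18, 0.36 and -0.15. MUC16 was near the filter at 5.94 and 5.89 (0.05). Of 4 leukocyte markers measured, CD3E was near the filter at 5.59 and 5.94, and PTPRC (4.68 and 4.76), CD14 (4.29 and 4.42) and LYZ (4.81 and 5.07) were below it.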

How the data were processed

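Per the labels' protocols, total RNA was extracted with Trizol and converted to biotin-labelled single-strand cDNA. The deposited values are log2 signals per probe set. Per the submitters' processing notes they come from RMA, whose output is on a log2 scale. A software version, genome build or background setting was not given in the sources used here. The miR-491-5p column spanned 2.53 to 19.22 and the control column 2.58 to 19.18. Such top values are high for a scanner, so an unstated rescaling cannot be told apart from RMA here, and folds are powers of 2 of the deposited differences.

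Of 67528 probe sets, 23781 had 1 gene symbol in GEO's platform annotation, 1543 several and 42204 none named here. Each of 22465 genes took the set with the highest mean. Of 32 histone symbols, 30 matched RefSeq directly and 2 through older symbols. Pseudogenes, an antisense RNA and H1-10, all of which the symbol pattern takes, were left out. Pattern, classes, gene lists, folds of 1.5 and 2 and the alternatives were chosen with earlier results of these data known. Named with values were all histone genes and, per list, the 4 largest differences plus SLBP, NPAT, H2AX and H1-10, and, chosen after their values were seen, SSRP1, the other cell type markers and the shared probe sets. The number of arrays limits the precision. The counting and scaling steps were tested on simulated data. Python 3.11.15, numpy 2.4.6, pandas 2.3.3 and statsmodels 0.14.6 (loess, span 0.3) were used.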

Additional observations from a re-analysis of the deposited data

How the results depend on the processing

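No paired analysis was possible because there was a single array of either kind, and for the same reason no replicate could be left out. Alternatives were median centring, loess correction, no filter, both arrays above the filter, the mean of probe sets, H1-10 counted in, and shared histone probe sets counted in. The count of histone genes past 1.5-fold and past 2-fold was 0 in both directions under each of these 7. At 1.2-fold, added after the data were seen, 1 was lower and 2 were higher. Median centring shifted every difference by 0.07, so no median or single difference could move by more than 0.1 under it. Counting H1-10 in could change only the H1 and whole-set values. Of 106 medians and counts recomputed, 102 moved by at most 0.1 (log2) or kept their count, in part for these reasons. Besides the counts at 1.2-fold, the exceptions were the H4 median of -0.49, which was -0.27 without a filter (2 genes instead of 1) and 0.10 with shared probe sets (13 values instead of 1). The sign of a median differed in 20 of the 106, H4 with shared sets among them, since most lay near 0. Of 96 recomputed differences of single histone genes, 5 moved by more than 0.1: H2BC11 with the mean of its probe sets and, under loess, 4 genes below the filter. Centring changed the counts over all genes from 521 lower and 97 higher at 1.5-fold to 385 and 148. Signal over background is unknown, and near-identical gene copies limit which gene a probe set reads.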

Other observations

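A few histone-named genes outside the replication-dependent set also had their own probe sets. H1-7 and H1-8, germ cell linker histones, read 5.73 and 5.69 on the miR-491-5p array, against 5.47 and 5.89 on the control array, close to the filter of 5.55. The X-linked testis genes H2BW1 (4.23 against 4.36) and H2BW2 (4.73 against 4.81) were below it. The pseudogene H2BC20P read 11.30 against 11.32 and H2AC2P 5.89 against 6.10.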
